A study of Danio rerio with 28 samples.

Results

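The genes described here encode the secreted signals of the Wnt, Fgf, Bmp and Gdf, Tgf-beta and activin, and Hedgehog families, with the Bmp antagonists chordin and noggin, in zebrafish embryos. They were chosen by symbol, leaving out receptors and binding proteins, and 72 genes measured by 100 probes were found among the 10536 genes that the array names through the GRCz12tu annotation. That annotation holds 102 genes with matching symbols, and those without a named probe were not analysed here. The 72 genes comprised 13 Wnt genes, 23 secreted Fgf genes, 6 intracellular Fgf genes, 15 Bmp and Gdf genes, 2 Bmp antagonists, 5 Tgf-beta and activin genes, 5 Hedgehog genes and 3 genes that share a bmp symbol without encoding a ligand.

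Embryos of the DZ wild-type strain were kept from 3 hpf in medium with 1 µM 17β-estradiol (E2), a natural estrogen, or with the solvent alone (0.1% DMSO). The E2 was added from a DMSO stock, so the E2 pools received the solvent too. Whole embryos were collected in pools of 30 at 24, 48, 72 and 104 hpf, called 1, 2, 3 and 4 dpf below, and each pool was hybridised to a 1-colour Agilent array. This gave 28 arrays in 8 groups, with 3 pools per group at 1 and 2 dpf and 4 pools per group at 3 and 4 dpf. Replicates of a group came from separate spawnings of different adult pairs, and the methods treat the replicate as a batch. The comparisons ask how each signal changed from stage to stage in solvent-treated embryos, and whether E2 altered it at any stage.

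Wnt proteins are lipid-modified signals that bind Frizzled receptors, and many act by stabilising beta-catenin. Secreted Fgf proteins bind receptor tyrosine kinases. Bmp, Gdf, Tgf-beta and activin dimers bind serine/threonine kinase receptors that act through Smad proteins, and Hedgehog signals reach the cell through the transducer Smoothened. In the embryo these signals set the body axes, the regions of the brain and somites, and the buds of fins and organs, and later growth of muscle and skeleton, and most of them are used again in several places.

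Signals are given as log2 of the processed intensity after quantile normalization, and levels are set side by side only within a gene, since probes differ in brightness. Of the spots on an array, between 58.1% and 96.1% were well above background (median over arrays 71.0%). The lowest shares were all in E2 pools. They were 58.1% in 4 dpf E2 replicate 4, which also had 529 outlier spots, 58.7% in 1 dpf E2 replicate 2 and 63.9% in 4 dpf E2 replicate 2. The share of 3 dpf E2 replicate 1 was highest, the next array reaching 73.8%. The median correlation (rho) of that array with the other 3 pools of its group was 0.848, against 0.98 to 0.981 for each of those pools. It lay outside the range of the other 3 pools for 61 of 72 genes, above for 35 and below for 26. For each of the other pools this held for 24 to 30 genes. The matching share over all named genes is not given, so whether this is particular to the ligands cannot be told from these counts. Of 18 marker genes of muscle, neurons, blood, lens, skin, liver and hatching gland that were measured, 13 were well above background on all arrays, the fewest being 11 arrays for the liver gene apoa1b. The estrogen-responsive gene cyp19a1b, which encodes brain aromatase, served as the check of exposure. Its log2 change under E2 was 0.64 at 1 dpf (unadjusted limma p of 0.279), 2.60 at 2 dpf (unadjusted limma p of 0.00023, adjusted p = 1), 5.38 at 3 dpf (adjusted p = 1.33e-05) and 6.67 at 4 dpf (adjusted p = 1.09e-07). In 3 dpf DMSO replicate 2, cyp19a1b stood at 7.87, above the 4.15, 4.54 and 4.35 of the other 3 dpf DMSO pools and below all 3 dpf E2 pools. Values without these pools are given beside several of the results at 3 dpf.

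Of the 72 genes, 43 were well above background on all 28 arrays, 23 on 14 to 27 arrays and 6 on fewer. The last were bmp15 and gdf9, which are oocyte growth factors, bmp7a, gdf6b, fgf7, and dhh, the Hedgehog ligand of Schwann cells and gonads in mouse. In bulk samples, fewer cells that express a gene and less RNA per cell cannot be told apart.

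Across the 4 stages of DMSO embryos, 42 of 72 genes (58.3%) differed at an adjusted p under 0.05 (limma), against 69.6% of all named genes. Of these 42, 16 were highest on average at 1 dpf and 8 at 2 dpf, and the mean of 7 others was highest at 3 dpf and that of 11 at 4 dpf. By family, none of the 5 intracellular genes that varied peaked at 1 dpf, while 5 of 11 secreted Fgf genes and 5 of 9 Wnt genes did. These are counts, and the difference between families was not tested. The peak stages of all named genes are not given, so whether such peaks are particular to these genes cannot be told. Of the same genes, 4 of 11 secreted Fgf genes and 2 of 9 Wnt genes peaked at 4 dpf.

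**Figure D1:**
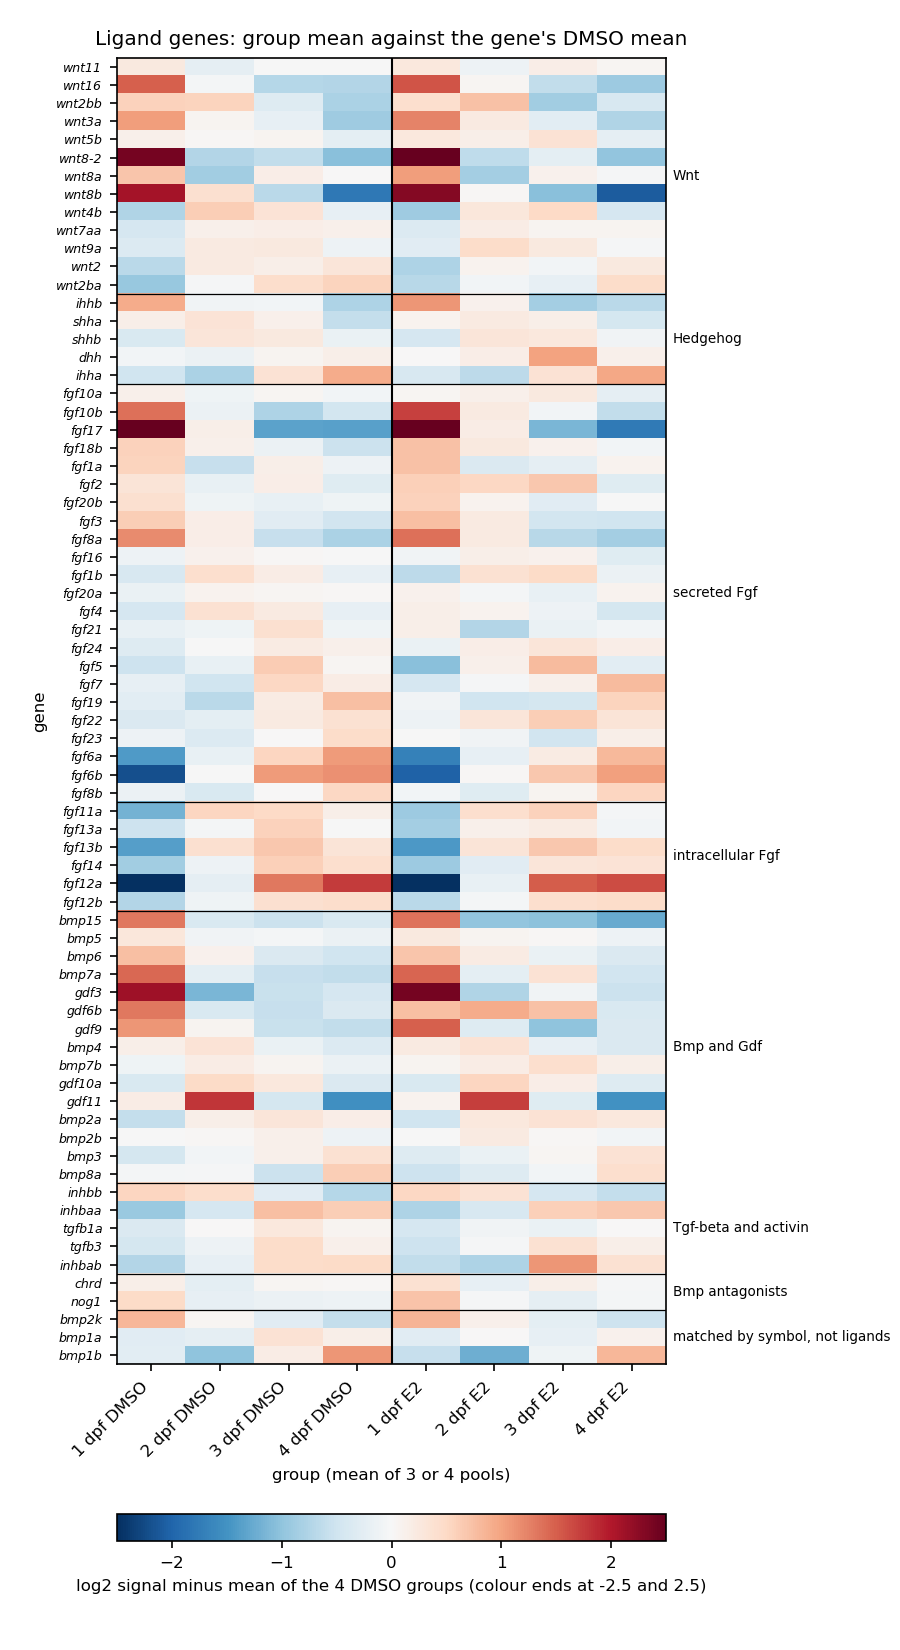
Heat map of the 72 genes (rows, ordered by family) in the 8 groups (columns), coloured by the group mean of the log2 signal minus the mean of the 4 DMSO groups of that gene, with the colour scale ending at ±2.5. Of the 42 genes that differed between stages, 16 had their highest DMSO mean at 1 dpf and 11 at 4 dpf.

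From 1 to 2 dpf, 29 of 72 genes changed: 15 rose (20.8%, against 17.9% of named genes) and 14 fell (19.4%, against 22%). Leaving out 2 dpf DMSO replicate 2 left 20 of them, and leaving out any other DMSO pool of these stages left 24 to 26 calls. From 2 to 3 dpf, 9 genes rose (12.5%, against 15.1%) and 4 fell (5.56%, against 10.8%). That total of 13 became 8 without 2 dpf DMSO replicate 3, and 11 without 3 dpf DMSO replicate 2. From 3 to 4 dpf, 3 rose (4.17%, against 8.57%) and 6 fell (8.33%, against 10.8%). That total of 9 became 4 without 3 dpf DMSO replicate 1, 5 without 3 dpf DMSO replicate 4 and 6 without 3 dpf DMSO replicate 2. The calls at the 3 steps come from a fit with the replicate number as a block. Without that block, 19, 7 and 3 of them remained. Below, the step of fgf19 alone is also given without it. The median log2 change of the 72 genes was -0.00, 0.12 and -0.14 at the 3 steps, against -0.13, 0.02 and -0.06 over all named genes.

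**Figure D2:**
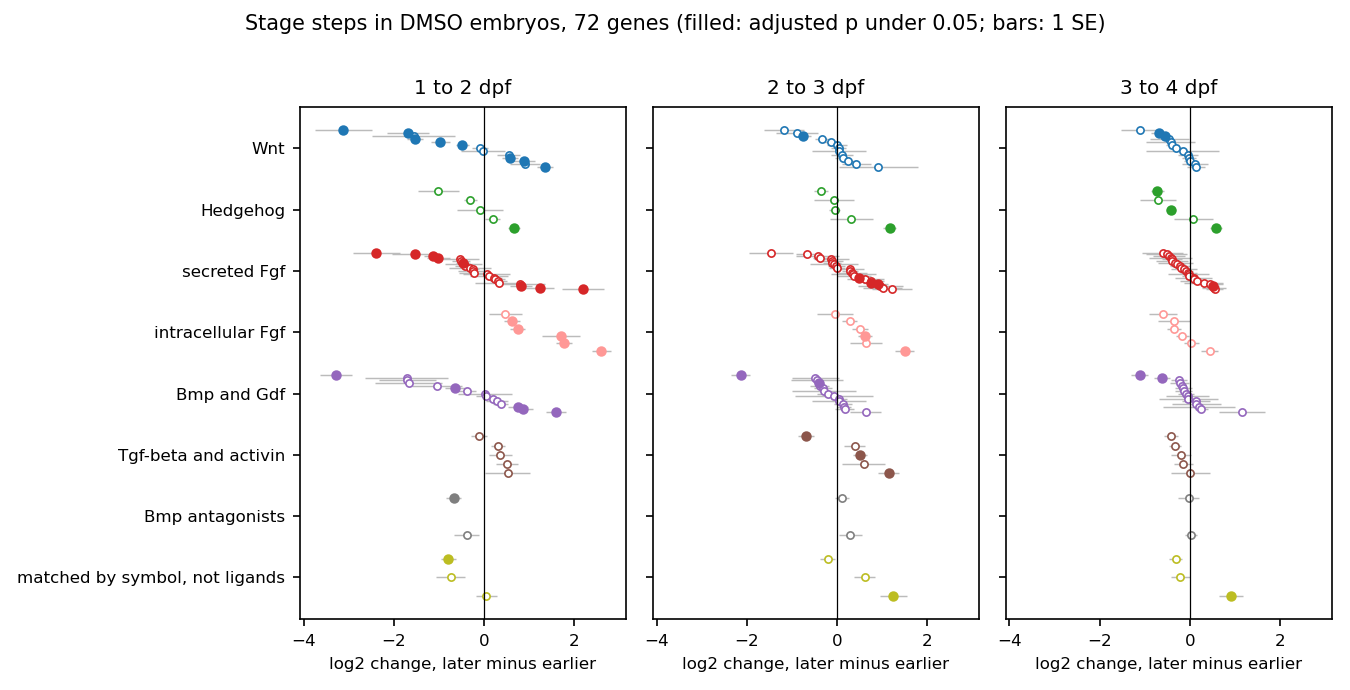
Fitted log2 change with ±1 SE of each of the 72 genes (points, arranged by family) at the 3 stage steps of DMSO embryos, where filled points have an adjusted p under 0.05. The first step holds 29 filled points, the second 13 and the last 9, and all filled intracellular Fgf points lie above 0.

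Among Wnt genes, 5 of 13 fell and 3 rose from 1 to 2 dpf. The widest fall was that of wnt8-2, a probe for a Wnt8 gene, which patterns the ventrolateral mesoderm and posterior neural plate. In DMSO pools its log2 signal was 8.31, 6.89 and 6.35 at 1 dpf and 3.35, 4.14 and 4.70 at 2 dpf, and it stayed between 3.05 and 4.66 at 3 and 4 dpf. Every 1 dpf pool was above every later pool, with a spread at 1 dpf wider than at the later stages. The fitted change was -3.12 ± 0.63 (SE, adjusted p = 0.00089, limma with the replicate number as a block), and fitted changes differ a little from raw differences of means for that reason.

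The array also names a wnt8a probe, whose reference gene has the same place on chromosome 14 as that of wnt8-2, so the probes do not stand for independent genes. For wnt8a the 1 dpf signals were 6.06, 4.46 and 3.79, and the 2 dpf signals were 1.79 (not well above background), 3.97 and 3.89. The pools overlapped, and the change of -1.55 did not pass the test (adjusted p = 0.267). In both probes replicate 1 was the highest pool at 1 dpf and the lowest at 2 dpf. For wnt8b, a Wnt of the developing brain, the signal was 5.59, 4.99 and 4.76 at 1 dpf, then 3.83, 3.49 and 2.97 at 2 dpf, a fitted change of -1.69 ± 0.47 (adjusted p = 0.0104). Only 1 of 4 pools of wnt8b was well above background at 3 dpf and none at 4 dpf, so its level at 4 dpf is known only as a bound.

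The gene wnt16, which acts in the specification of blood stem cells, fell at both early steps. Its DMSO signals were 6.40, 6.22 and 7.13 at 1 dpf. They were 4.96, 4.87 and 5.33 at 2 dpf, and at 3 dpf 3.88, 4.44, 4.58 and 4.66. The stages did not overlap, and the fitted changes were -1.53 ± 0.18 (adjusted p = 2.33e-06) and -0.75 ± 0.17 (adjusted p = 0.00504). The tailbud and dorsal neural tube gene wnt3a had 8.62, 8.08 and 7.62 at 1 dpf and 7.36, 7.09 and 6.97 at 2 dpf (-0.97 ± 0.21, adjusted p = 0.00137). From 3 dpf (8.04, 6.57, 6.27 and 6.56) to 4 dpf (6.99, 5.87, 6.01 and 5.82) wnt3a fell again by 0.69 (SE 0.18, adjusted p = 0.0157), although the pools overlapped because replicate 1 was the highest pool at both stages. That later call for wnt3a was lost without 3 dpf DMSO replicate 1, 3 dpf DMSO replicate 4 or 4 dpf DMSO replicate 2 (adjusted p = 0.0654 to 0.0816). For wnt11, which guides cell movements in gastrulation, the first step was -0.47 ± 0.15 (adjusted p = 0.0283), and it was lost without 1 dpf DMSO replicate 3, 2 dpf DMSO replicate 1 or 2 dpf DMSO replicate 2 (adjusted p = 0.0713 to 0.144).

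In the other direction, wnt4b, a floor plate gene, had 7.45, 7.41 and 7.47 at 1 dpf and 8.67, 8.86 and 8.88 at 2 dpf. It rose by 1.36 ± 0.17 (adjusted p = 5.74e-06), without overlap. Another wnt4b probe changed by only 0.09 at this step (adjusted p = 0.948), so the rise rests on the main probe. From 3 dpf (8.51, 8.13, 8.77 and 8.74) to 4 dpf (7.80, 8.01, 8.14 and 8.01) wnt4b fell by 0.55 (SE 0.15, adjusted p = 0.0224) with overlapping pools. The later call for wnt4b was lost without any of 6 pools, namely 3 dpf DMSO replicates 1, 3 and 4 and 4 dpf DMSO replicates 1, 3 and 4 (adjusted p = 0.0534 to 0.0912). The remaining Wnt genes that rose at the first step were wnt2 and wnt9a, by 0.90 and 0.58, and the call for wnt9a was lost without 1 dpf DMSO replicates 1 or 2 or 2 dpf DMSO replicates 2 or 3 (adjusted p = 0.0517 to 0.0921). For wnt5b, another Wnt of cell movements, the step changes were -0.09, 0.04 and -0.32, none past the test.

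Among the 5 Hedgehog genes, ihha, shha and shhb moved at different steps. For ihha, the Indian hedgehog of cartilage and bone, the DMSO signals were 8.86, 8.80 and 8.55 at 1 dpf and 8.51, 8.49 and 8.30 at 2 dpf. They reached 9.59, 9.67, 9.46 and 9.62 at 3 dpf and 10.16, 10.60, 10.04 and 9.86 at 4 dpf. The 3 dpf pools were all above the earlier ones, the 4 dpf pools were all above these, and ihha rose by 1.17 ± 0.14 (adjusted p = 8.42e-06) and 0.58 ± 0.13 (adjusted p = 0.00508). Another ihha probe moved the same way without passing the test, by 0.53 (adjusted p = 0.274) and 0.79 (adjusted p = 0.0726).

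The sonic hedgehog gene shha, expressed in notochord, floor plate and fin buds, fell only at the last step. At 3 dpf shha stood at 10.77, 11.35, 11.87 and 11.64, and at 4 dpf at 9.90, 10.37, 11.17 and 11.29. The stages overlapped, and with the replicate number as a block the fitted change of shha was -0.72 ± 0.14 (adjusted p = 0.00172). Each 4 dpf pool was below the 3 dpf pool with the same replicate number, but no label says that these share a batch. Another shha probe changed by -0.92 (adjusted p = 0.000124). The floor plate paralog shhb had 8.55, 8.50 and 8.44 at 1 dpf, against 9.12, 9.35 and 9.05 at 2 dpf. The 3 dpf pools of shhb stood at 9.30, 9.22, 8.97 and 8.97, above the 8.78, 8.40, 8.82 and 8.80 of the last stage. It rose by 0.68 ± 0.13 (adjusted p = 0.000531) at the first step and fell by 0.42 (SE 0.11, adjusted p = 0.0196) at the last, with no overlap at either. Another shhb probe changed by 0.56 (adjusted p = 0.0543) and -0.62 (adjusted p = 0.0293) at these steps. The fall of shhb was lost without 3 dpf DMSO replicates 1 or 2 or 4 dpf DMSO replicate 2 (adjusted p = 0.0746 to 0.101).

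For ihhb, a notochord gene, the signals were 5.92, 5.83 and 6.23 at 1 dpf, against 4.77, 4.82 and 5.36 at 2 dpf. The 3 dpf pools had 5.03, 4.83, 5.27 and 4.87, and the last stage had 4.27, 3.79, 4.58 and 4.55. The 1 dpf pools of ihhb were the highest and the 4 dpf pools the lowest, and the stages differed as a whole (adjusted p = 0.0177), but no single step passed. The dhh probe was not well above background on any array except 3 dpf E2 replicate 1, so its steps among DMSO pools are not described.

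**Figure D3:**
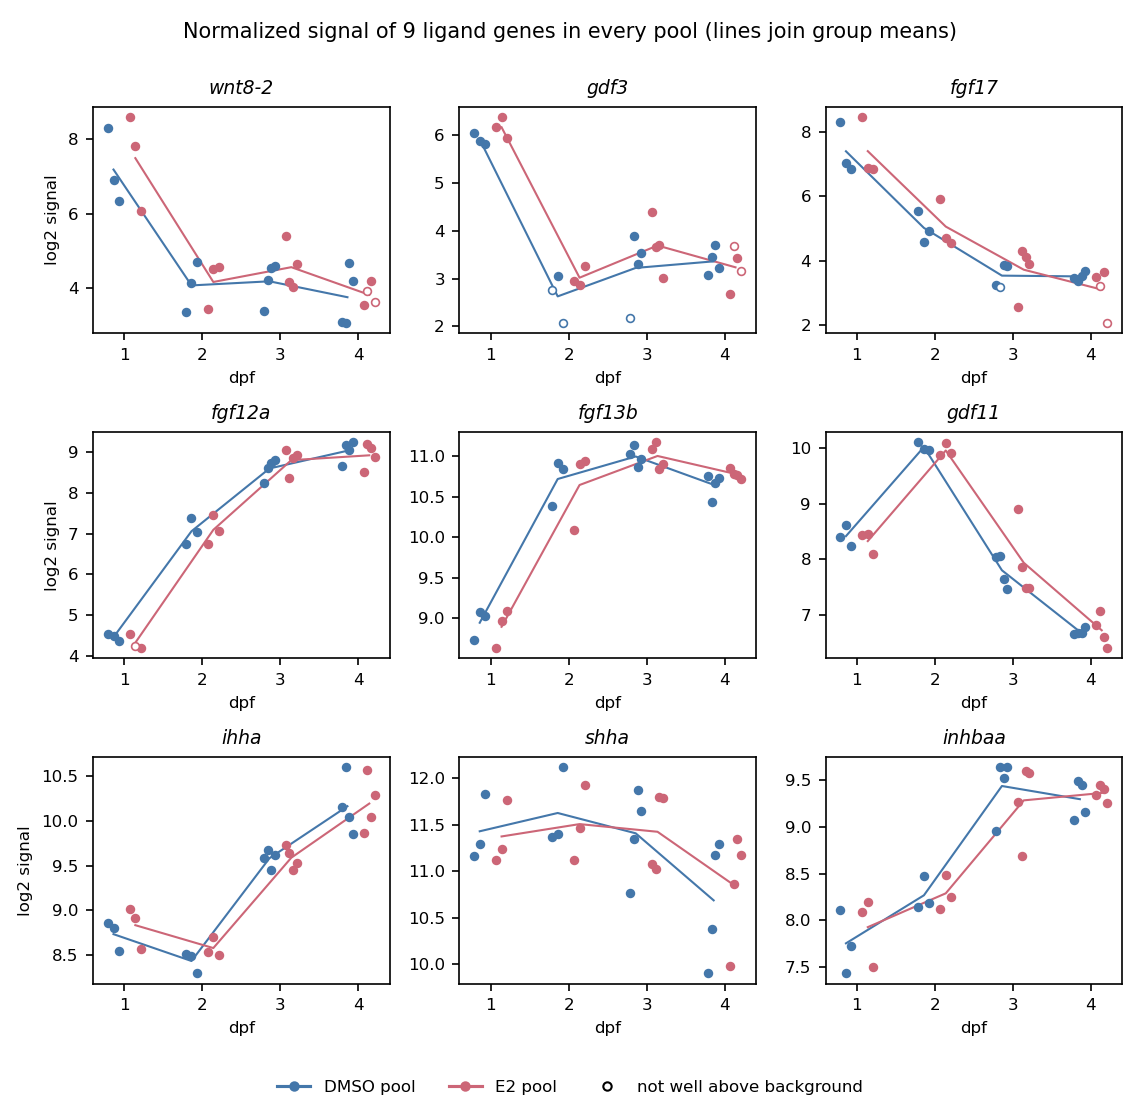
Log2 signal of wnt8-2, gdf3, fgf17, fgf12a, fgf13b, gdf11, ihha, shha and inhbaa in every pool (y axis) against stage (x axis, dpf) for DMSO and E2, with open points for spots not well above background and lines joining group means. DMSO signals of fgf12a run from 4.35 to 4.52 at 1 dpf to between 8.67 and 9.26 at 4 dpf, and those of gdf11 peak between 9.98 and 10.12 at 2 dpf.

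Of the 23 secreted Fgf genes, 5 fell and 3 rose from 1 to 2 dpf, and on their main probes none fell at a later step. The fall was widest for fgf17, which with fgf8a belongs to the Fgf8 subfamily and is expressed at the boundary of midbrain and hindbrain. Signals of fgf17 were 8.32, 7.03 and 6.87 at 1 dpf, 5.55, 4.57 and 4.94 at 2 dpf, and between 3.18 and 3.87 at 3 and 4 dpf. The 1 dpf pools did not overlap with the 2 dpf pools, and the change was -2.39 ± 0.52 (adjusted p = 0.00163). Another fgf17 probe was well above background in all 3 pools at 1 dpf and in none at 2 dpf. Replicate 1 was the highest pool at both stages. For fgf8a the signals were 9.25, 8.49 and 8.47 at 1 dpf and 7.77, 7.81 and 7.59 at 2 dpf, all lower than at 1 dpf. The change of fgf8a was -1.01 ± 0.25 (adjusted p = 0.00497), and its other probes gave -0.96 and -1.08. From 2 to 3 dpf the main probe of fgf8a changed by -0.67 (adjusted p = 0.0673), while the first of these other probes passed the test at -0.86 (adjusted p = 0.0188).

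The gene fgf3, which acts with fgf8a in the induction of the ear, changed by -0.46 ± 0.16 (adjusted p = 0.0407), from 6.96, 6.56 and 6.69 to 6.58, 6.12 and 6.14. The fgf3 pools overlapped, and the call was lost whichever of the 6 pools was left out (adjusted p = 0.0559 to 0.166). For fgf10b, a paralog of the fin bud gene fgf10a, the signals went from 6.21, 5.56 and 5.88 to 4.12, 4.34 and 4.59 without overlap. Its change was -1.53 ± 0.50 (adjusted p = 0.0295), lost without 1 dpf DMSO replicates 1 or 3 or 2 dpf DMSO replicates 1 or 2 (adjusted p = 0.0774 to 0.14). The pectoral fin bud signals fgf10a (-0.24, 0.29 and -0.13 at the 3 steps) and fgf24 passed the test at no step, though fgf24 differed over the stages as a whole (adjusted p = 0.0341).

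The gene fgf1a, an acidic Fgf made without a signal peptide, fell and then rose. DMSO signals of fgf1a were 8.48, 8.56 and 8.69 at 1 dpf, went down to 7.54, 7.28 and 7.49 at 2 dpf and came back to 8.34, 8.23, 7.98 and 8.17 by 3 dpf. No pool at 2 dpf reached a pool at 1 or 3 dpf, and the changes were -1.14 ± 0.19 (adjusted p = 0.000105) and 0.76 ± 0.18 (adjusted p = 0.00556). Another fgf1a probe changed by -1.16 (adjusted p = 0.0477) and then by 0.61 (adjusted p = 0.362). Its paralog fgf1b rose at the first step by 0.82 (adjusted p = 0.02), a call lost without 1 dpf DMSO replicate 1 or 2 dpf DMSO replicates 2 or 3 (adjusted p = 0.0623 to 0.147).

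Both fgf6 genes, whose mouse counterpart acts in muscle, were at or near background at 1 dpf. For fgf6b no 1 dpf DMSO pool was well above background (1.18, 1.95 and 1.99), while the 2 dpf pools stood at 3.61, 4.11 and 3.99. All later DMSO pools of fgf6b were well above background, between 4.53 and 5.45. The level at 2 dpf was at least 1.92-fold that at 1 dpf, where the bound sets the 2 dpf mean against the lowest signal that counted as well above background, or the probe's own where higher, and the fit gave an adjusted p of 0.00127. The paralog fgf6a rose at the same step by 1.24 (adjusted p = 0.00623), with 1 of its 1 dpf DMSO pools well above background, and without 2 dpf DMSO replicate 2 its change was 0.86 (adjusted p = 0.071).

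At later steps, fgf19, an endocrine Fgf that acts in the zebrafish forebrain, rose from 3.19, 3.74 and 3.58 at 2 dpf to 4.45, 4.92, 3.96 and 4.21 at 3 dpf. The stages did not overlap (0.91 ± 0.21, adjusted p = 0.00588), and without 3 dpf DMSO replicate 2, the highest pool, the change of fgf19 was 0.85 (adjusted p = 0.0227). The call for fgf19 was lost with 75th percentile scaling (1.04, adjusted p = 0.0611), normexp background correction (0.19, adjusted p = 0.0655), no replicate block (0.88, adjusted p = 0.0726) and scan batch as a block (0.68, adjusted p = 0.0702). The Fgf8 paralog fgf8b rose from 2 to 3 dpf by 0.48 ± 0.14 (adjusted p = 0.0185) and from 3 to 4 dpf by 0.51 ± 0.12 (adjusted p = 0.00979). Its signals were 5.61, 5.92 and 5.19 at 2 dpf, then 5.91, 6.46, 5.71 and 5.83, and in the last stage 6.62, 6.75, 6.38 and 6.20, so neighbouring stages overlapped. The earlier rise of fgf8b was lost without 2 dpf DMSO replicate 3 or 3 dpf DMSO replicate 2 (adjusted p = 0.061 to 0.101), and another fgf8b probe changed by -0.12 at the later step. The endocrine gene fgf21 passed at no step.

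The 6 intracellular Fgf genes encode Fgf homologous factors, which are not secreted and bind voltage-gated sodium channels in neurons. Of these 6, 5 rose from 1 to 2 dpf, 2 rose again from 2 to 3 dpf, and on their main probes none fell at any step. The DMSO signals of fgf12a were 4.52, 4.48 and 4.35 at 1 dpf, against 6.75, 7.38 and 7.05 at 2 dpf. They reached 8.25, 8.61, 8.74 and 8.82 at 3 dpf, then 8.67, 9.18, 9.07 and 9.26. The first 3 stages did not overlap, and fgf12a rose by 2.61 ± 0.22 (adjusted p = 2.26e-08) and then by 1.50 ± 0.21 (adjusted p = 3.51e-05). For fgf13b the signals were 8.73, 9.07 and 9.03 at 1 dpf and 10.39, 10.92 and 10.85 at 2 dpf, and between 10.44 and 11.13 thereafter. All later pools of fgf13b were above its 1 dpf pools, and the first step was 1.77 ± 0.18 (adjusted p = 3.14e-07).

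No 1 dpf DMSO pool of fgf11a was well above background (1.17, 3.25 and 2.87), and its 2 dpf pools stood at 3.67, 4.27 and 4.48, at least 2.11-fold higher (adjusted p = 0.00426). The other risers of this group were fgf12b and fgf14, by 0.63 (adjusted p = 0.0142) and 0.75 (adjusted p = 0.00165), and fgf14 rose by a further 0.63 from 2 to 3 dpf (adjusted p = 0.00826). The call for fgf12b was lost without 1 dpf DMSO replicate 3 or 2 dpf DMSO replicate 2 (adjusted p = 0.0675 to 0.0782), and the later call for fgf14 without 2 dpf DMSO replicate 3 (adjusted p = 0.0685). The sixth, fgf13a, was not called at any step on its main probe. From 2 to 3 dpf that probe changed by 0.65 (adjusted p = 0.243), while another fgf13a probe fell by 1.83 (adjusted p = 0.00597).

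Of the 15 Bmp and Gdf genes, 3 rose and 2 fell from 1 to 2 dpf, and 2 fell at each later step. The gene gdf3, known in zebrafish as Vg1, a maternal signal that works with Nodal in forming mesoderm and endoderm, fell at the first step. Its DMSO signals were 6.04, 5.88 and 5.81 at 1 dpf and 2.77, 3.05 and 2.07 at 2 dpf, of which only 3.05 was well above background. All later pools of gdf3 lay between 2.18 and 3.89, below every 1 dpf pool, and the fitted change was -3.28 ± 0.36 (adjusted p = 8.94e-07).

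The gene gdf11, which sets axial identity in mouse, changed at all 3 steps. Its signals were 8.41, 8.62 and 8.24 at 1 dpf, against 10.12, 9.99 and 9.98 at 2 dpf. The 3 dpf pools were down to 8.04, 8.07, 7.65 and 7.47, and the last ones to 6.66, 6.68, 6.67 and 6.78. No 2 stages of gdf11 overlapped. It rose by 1.61 ± 0.22 (adjusted p = 1.3e-05), fell by 2.14 (SE 0.21, adjusted p = 7.03e-07) and fell by a further 1.11 (SE 0.19, adjusted p = 0.000607). The other gdf11 probe moved by 1.71, -2.26 and -1.02, each past the test.

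The axis-patterning gene bmp4 had 9.78, 9.74 and 9.38 at 2 dpf and 9.68, 9.35, 8.72 and 8.75 at 3 dpf. These overlapped, and the change of -0.39 ± 0.10 (adjusted p = 0.014) was lost without 2 dpf DMSO replicates 2 or 3 or 3 dpf DMSO replicate 3 (adjusted p = 0.0578 to 0.112). Another bmp4 probe gave -0.10 at this step. It passed the test from 3 to 4 dpf at -0.49 (adjusted p = 0.0456), where the main probe gave -0.18 (adjusted p = 0.318). Of the partners of bmp4 in dorsoventral patterning, bmp2b moved by 0.04, 0.13 and -0.25, none past the test, and bmp7a was well above background on only 4 of 28 arrays. For gdf10a, a Bmp3-related gene, the first step was a rise of 0.87 ± 0.21 (adjusted p = 0.00424), from 5.15, 5.67 and 6.40 to 5.95, 6.41 and 7.47. The stages of gdf10a overlapped. Each 2 dpf pool was above the 1 dpf pool with its number, but no label says that these share a batch. Its fall of 0.62 from 3 to 4 dpf (SE 0.18, adjusted p = 0.0369) was lost without any of 7 of the 8 pools, the exception being 4 dpf DMSO replicate 1 (adjusted p = 0.0551 to 0.156). The remaining calls at the first step were bmp2a, higher by 0.75, and bmp6, lower by 0.64. That of bmp2a was lost without 1 dpf DMSO replicate 1 or 2 dpf DMSO replicates 2 or 3 (adjusted p = 0.0694 to 0.0889). That of bmp6 was lost without any DMSO pool of these stages but 1 dpf DMSO replicate 1 (adjusted p = 0.0584 to 0.192).

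Of the Bmp antagonists, which bind Bmp proteins outside the cell, nog1 fell at the first step, from 9.47, 9.38 and 9.59 to 8.75, 8.76 and 8.91. No pool overlapped, and the change of nog1 was -0.67 ± 0.16 (adjusted p = 0.00428). For chrd, the chordin gene, the steps were -0.38, 0.30 and -0.02, none past the test.

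Among the 5 Tgf-beta and activin genes, none was called from 1 to 2 dpf, and 2 rose and 1 fell from 2 to 3 dpf. For inhbaa, an activin subunit, the signals were 8.14, 8.47 and 8.18 at 2 dpf and 8.95, 9.64, 9.52 and 9.64 at 3 dpf, without overlap. It rose by 1.15 ± 0.24 (adjusted p = 0.00207). Of the other inhbaa probes, 2 moved the same way (0.54 and 0.97, the second past the test) and the last moved by -1.26 (adjusted p = 0.314). The activin subunit gene inhbb went the other way, from 8.54, 8.67 and 8.70 to 8.21, 8.09, 7.74 and 7.61, again without overlap (-0.68 ± 0.17, adjusted p = 0.00815). Without 2 dpf DMSO replicate 3 the change of inhbb was -0.60 (adjusted p = 0.0573). Another inhbb probe changed by -0.39 from 2 to 3 dpf (adjusted p = 0.316). That probe passed the test from 3 to 4 dpf at -0.72 (adjusted p = 0.034), where the main probe gave -0.42 (adjusted p = 0.0951).

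The gene tgfb3, a Tgf-beta of palate and connective tissue in mouse, had 9.17, 9.62 and 10.00 at 2 dpf and 9.86, 10.21, 10.29 and 10.36 at 3 dpf. The stages overlapped, and the rise of 0.52 ± 0.15 (adjusted p = 0.0238) was lost without any 2 dpf DMSO pool or without 3 dpf DMSO replicates 1 or 2 (adjusted p = 0.055 to 0.115). For tgfb1a the steps were 0.36, 0.39 and -0.19, none past the test.

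Of the 3 genes that share the symbol pattern without encoding ligands, bmp1b and bmp2k changed. The bmp1b gene encodes a tolloid-type protease that cleaves procollagen and chordin. It rose from 4.95, 4.78 and 4.29 at 2 dpf to 5.77, 6.25, 5.89 and 5.56 at 3 dpf and 6.83, 6.93, 6.50 and 6.88 at 4 dpf, without overlap (1.26 ± 0.30, adjusted p = 0.00642, then 0.92 ± 0.27, adjusted p = 0.0354). The later rise of bmp1b was lost without 3 dpf DMSO replicates 1, 2 or 4 or 4 dpf DMSO replicates 1, 3 or 4 (adjusted p = 0.0698 to 0.132). The kinase gene bmp2k fell by 0.79 at the first step (adjusted p = 0.00186), and bmp1a was not called.

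Receptors, inhibitors and targets of the same pathways were read from 4 lists, of which 77 genes were measured. Over all named genes, 17.9% rose and 22% fell at the first step, 15.1% and 10.8% at the second, and 8.57% and 10.8% at the third. Of 25 Wnt pathway genes, 4 rose and 9 fell from 1 to 2 dpf, 4 rose and 4 fell from 2 to 3 dpf, and 2 fell from 3 to 4 dpf. The Wnt target sp5l fell by 3.04 at the first step, and the transcription factor genes lef1 and tcf7l2 rose by 1.13 and 1.16. Of the same list, sp5a changed by -0.90 (adjusted p = 0.016) and axin2 by -0.03 (adjusted p = 0.967) at that step. Of 10 Fgf pathway genes, 1 rose and 1 fell, then 2 fell, then 1 rose and 1 fell. The receptor genes fgfr2, fgfr4 and fgfr3 changed at different steps, by 0.35 at the first, -0.62 at the second and -0.56 at the third. Of 29 Bmp, Tgf-beta and activin pathway genes, 8 rose and 8 fell at the first step, 5 rose and 13 fell at the second, and 4 fell at the third. Among the 13 that fell from 2 to 3 dpf were smad7, an inhibitory Smad (-2.73), id1, a Bmp target (-1.41), and grem2b, a Bmp antagonist (-2.05). Of 13 Hedgehog pathway genes, 3 rose and 5 fell at the first step and 4 fell at each later step. The smo gene, which encodes the transducer Smoothened, fell at each step, by 0.49, 1.00 and 0.60, and the pathway's transcription factor gene gli1 fell by 0.79 at the first and 0.58 at the second.

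The same stage steps were also read in the E2 pools, which are separate arrays in the same fit, a comparison added after the DMSO values were seen. All 29, 13 and 9 genes called in DMSO pools had the same sign in E2 pools, and 27, 10 and 6 of them were also called there. The E2 pools share the replicate terms and the estimate of the spread with the DMSO pools, so this is not an independent repeat. The matching share over all named genes is not given here. In E2 pools alone the calls numbered 30, 14 and 8. The genes called in DMSO pools but not in E2 pools were bmp6 and wnt11 at the first step, fgf19, fgf1a and tgfb3 at the second, and gdf10a, shhb and wnt3a at the third. From 2 to 3 dpf, fgf19 and fgf1a changed by 0.09 and 0.16 in E2 pools, against 0.91 and 0.76 in DMSO pools. Without 3 dpf E2 replicate 1 these changes in E2 pools were 0.31 and 0.29, and 10 and 4 of the genes called in DMSO pools at the later steps were also called in E2 pools. The stage-by-E2 term given below asks whether the E2 effect differed between any of the stages. Whether a single step differed between treatments was not tested.

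Under E2, the methods' thresholds (unadjusted p of at most 0.01 and a fold of at least 1.4) were passed by none of the 72 genes at 1, 2 and 4 dpf and by 1 gene at 3 dpf. Over all named genes the shares were 0.209%, 0.171% and 0.361% at 1, 2 and 4 dpf and 0.664% at 3 dpf. The paper applied these limits to an ANOVA within each stage, whereas here they were applied to the limma fit over all arrays. The paper listed more genes at every stage than passed here. At an adjusted p under 0.05 (limma), 0 of 72 genes were called at every stage, against 0%, 0.019%, 0.019% and 0.0759% of named genes at 1, 2, 3 and 4 dpf. An unadjusted p under 0.05 was reached by 0, 0, 5 and 0 of the 72 genes, against 103, 99, 510 and 186 of the 10536 named genes. In the other fits over all pools it was reached by between 0 and 5 of the 72 genes per stage. The stage-by-E2 term called 0 of 72 genes (background 0.0759%), and 2, fgf19 and fgf1a, had an unadjusted p under 0.05 (0.0337 and 0.0476). Neither did without 3 dpf E2 replicate 1 (0.0714 and 0.14) or without 3 dpf DMSO replicate 2 (0.0732 and 0.0812).

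The gene past the thresholds at 3 dpf was fgf19. Its 3 dpf signals were 2.95, 4.32, 3.94 and 3.79 in E2 pools and 4.45, 4.92, 3.96 and 4.21 in DMSO pools. E2 was lower in 4 of 4 pairs of the same number, by least in replicate 3, while the groups overlapped. The change of fgf19 was -0.64 ± 0.20 (SE, 95% interval -1.05 to -0.23, unadjusted limma p of 0.00418, adjusted p = 0.654). Without 3 dpf E2 replicate 1, the lowest pool, it was -0.43, without 3 dpf DMSO replicate 2, the highest, -0.58, and without 3 dpf DMSO replicate 1, -0.51, none of them past the thresholds. Scaling each array to its 75th percentile in place of quantile normalization turned it to 0.16, not past the thresholds. That scaling moved the median over all probes at this stage from -0.02 to 0.24. At 1, 2 and 4 dpf the fgf19 groups overlapped as well.

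The other 4 genes with an unadjusted p under 0.05 at 3 dpf were fgf1a, bmp1a, wnt2ba and dhh, each with an adjusted p of 0.654. For fgf1a the E2 pools stood at 7.47, 7.92, 7.83 and 7.94 and the DMSO pools at 8.34, 8.23, 7.98 and 8.17, without overlap, and the change was -0.39 (unadjusted limma p of 0.027). Without 3 dpf E2 replicate 1 it was -0.26, and averaged over the probes of fgf1a it was -0.11, neither with an unadjusted p under 0.05. For bmp1a the E2 pools were 5.25, 5.92, 6.29 and 6.08 and the DMSO pools 6.97, 6.26, 6.29 and 6.29, a change of -0.57 (unadjusted limma p of 0.0143). Replicate 1 held both extremes of bmp1a, and the change was -0.32 without 3 dpf E2 replicate 1 and -0.37 without 3 dpf DMSO replicate 1, neither with an unadjusted p under 0.05. Averaged over the probes of bmp1a it was 0.46, and another bmp1a probe, well above background in all 4 E2 pools and 1 DMSO pool, changed by 1.48.

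For wnt2ba, a Wnt2-family gene, E2 pools had 3.59, 4.53, 4.85 and 5.02 against 5.70, 5.12, 4.75 and 5.03, a change of -0.65 (unadjusted limma p of 0.0375) that was -0.33 without 3 dpf E2 replicate 1 and -0.41 without 3 dpf DMSO replicate 1, both above 0.05. Averaged over its probes it was 0.06, and with 75th percentile scaling 0.03, while another wnt2ba probe changed by 0.78. The first E2 pool was the lowest of wnt2ba, and replicates 3 and 4 lay within the DMSO range. For dhh only 3 dpf E2 replicate 1 (3.77) was well above background. The other 3 E2 pools (1.05, 1.17 and 0.51) and the DMSO pools (0.54, 0.68, 0.53 and 0.99) were not, and the change of 0.94 (unadjusted limma p of 0.0449) was 0.23 without that pool. The same pool stood apart for gdf6b, at 6.34 against 0.62 to 0.87 in the other E2 pools. The plots of single pools show this.

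**Figure D4:**
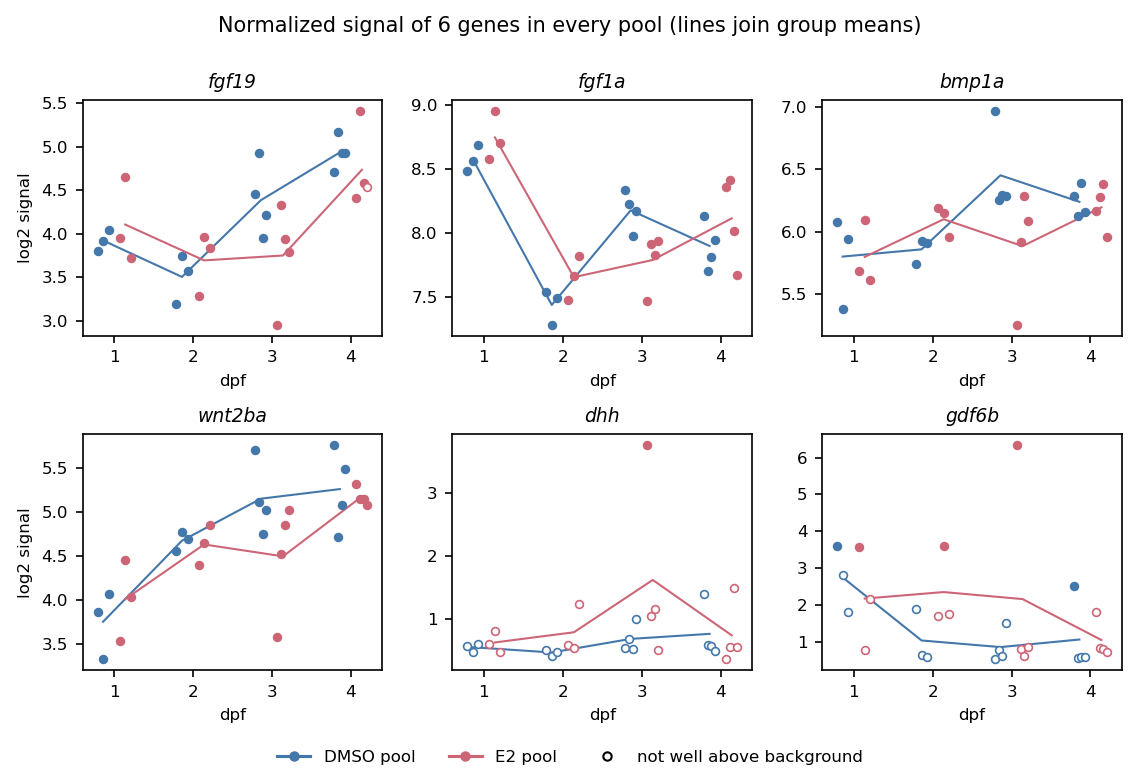
Log2 signal (y axis) of fgf19, fgf1a, bmp1a, wnt2ba, dhh and gdf6b in every DMSO and E2 pool at each stage, with open points for spots not well above background. At 3 dpf, E2 replicate 1 is the lowest pool of fgf19 (2.95), fgf1a (7.47), bmp1a (5.25) and wnt2ba (3.59) and the highest of dhh (3.77) and gdf6b (6.34).

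Leaving out 3 dpf E2 replicate 1 changed the picture of that stage: 3 of 72 genes then had a change beyond 0.5 on the log2 scale, against 12 with it, and 1 rather than 5 had an unadjusted p under 0.05. Without 3 dpf E2 replicates 2, 3 or 4 that number was 9, 11 and 9. The range over the 72 genes went from -0.79 (ihhb) to 1.30 (gdf6b) with it, and from -0.66 (fgf4) to 0.75 (fgf17) without it. Without 3 dpf DMSO replicate 2 no gene passed the thresholds.

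**Figure D5:**
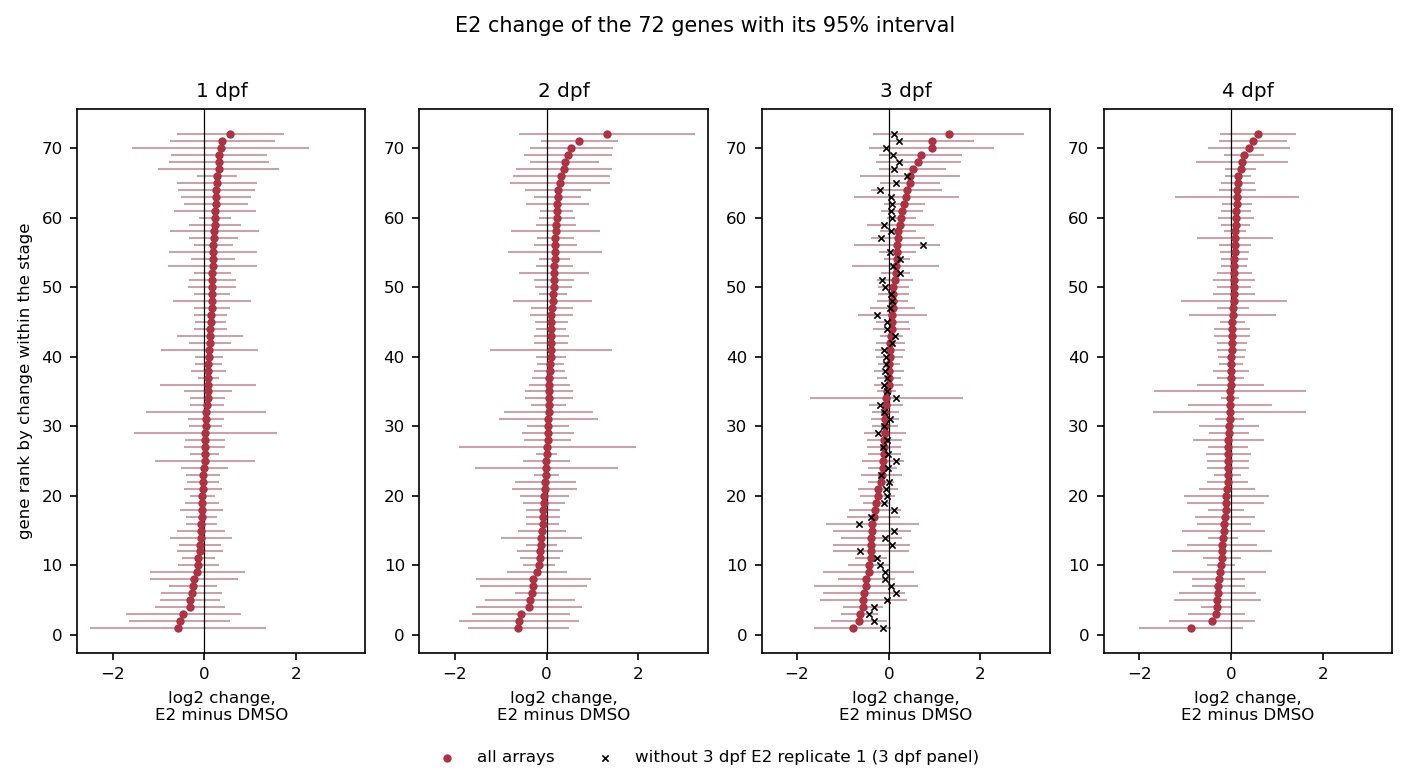
Log2 change under E2 of the 72 genes (points, ranked within each stage) with 95% intervals at 1, 2, 3 and 4 dpf, where crosses at 3 dpf give the change without 3 dpf E2 replicate 1. Intervals include 0 for all 72 genes at 1, 2 and 4 dpf and for 67 at 3 dpf, and at 3 dpf the crosses lie closer to 0 than the points for most of the widest changes.

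At the other stages the smallest p-values belonged to nog1 at 1 dpf (0.24, unadjusted limma p of 0.167), to wnt4b at 2 dpf (-0.32, p of 0.0803, lower in 3 of 3 pairs) and to fgf16 at 4 dpf (-0.31, p of 0.0674, lower in 4 of 4 pairs), all with an adjusted p of 1. For wnt4b the 2 dpf E2 pools stood at 8.66, 8.02 and 8.77 and the DMSO pools at 8.67, 8.86 and 8.88, so that replicate 2 made most of the difference. The replicate 2 pools of 2 dpf were on different slides (slide 1 for DMSO, slide 4 for E2) and in different scan batches. In that pair, E2 and slide cannot be told apart. For fgf16, a secreted Fgf of the fin bud, the 4 dpf E2 pools were 7.38, 6.92, 6.27 and 6.31 and the DMSO pools 7.82, 7.12, 6.46 and 6.74, which overlapped. Next in order were fgf20a and fgf5 at 1 dpf, fgf2 and gdf6b at 2 dpf, and bmp15 and fgf7 at 4 dpf.

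A p above the threshold does not show that E2 left a gene as it was, and the intervals give what these pools allow. The spread of a probe was estimated over all arrays together. The pool that stood apart, 3 dpf E2 replicate 1, therefore also enters the intervals and p-values of the other stages and of the DMSO steps. E2 changes at 1, 2 and 4 dpf and DMSO steps are not given without it. The 95% interval lay within a 2-fold change either way for 47, 50, 45 and 56 of 72 genes at 1, 2, 3 and 4 dpf. For shhb it ran from -0.32 to 0.22 at 1 dpf and from -0.14 to 0.33 at 4 dpf. For bmp4 it ran from -0.15 to 0.31 at 1 dpf and from -0.22 to 0.17 at 4 dpf. For ihhb at 3 dpf it was far wider, from -1.62 to 0.05, and without 3 dpf E2 replicate 1 it ran from -0.62 to 0.35. Without that pool 60 intervals at 3 dpf lay within a 2-fold change. The median change of the 72 genes was 0.08, 0.06, 0.00 and -0.01, and 48, 47, 36 and 34 of them were above 0. Over the 10536 named genes the medians were 0.007, 0.019, -0.029 and -0.002, and 5521, 5806, 4512 and 5214 were above 0. For the 72 genes at 3 dpf the median was -0.04 with 30 above 0 without 3 dpf E2 replicate 1, and 0.20 with 52 above 0 under 75th percentile scaling. The 77 receptors, inhibitors and targets held no gene past the methods' thresholds or an adjusted p under 0.05 at any stage. Among its E2-responsive genes the paper lists tcf7l2, of the Wnt list, at 2 dpf and il17rd, of the Fgf list, at 3 dpf. The change of tcf7l2 at 2 dpf in this fit was -0.05, and a value for il17rd is not given here. An unadjusted p under 0.05 was reached by 103, 99, 510 and 186 of the 10536 named genes, and by 0, 1, 4 and 0 of the 77. Among the last were dkk1b (0.48), a secreted Wnt inhibitor, at 2 dpf, and fstl1a (0.40), boc (0.35) and disp1 (-0.49) at 3 dpf. Without 3 dpf E2 replicate 1 these 3 changes were 0.24, 0.16 and -0.27, and 2 of the 77 genes had an unadjusted p under 0.05 at that stage, as did 2 without 3 dpf DMSO replicate 2.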

How the data were processed

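The deposited files are scanner outputs of 1-colour Agilent arrays, written by Agilent Feature Extraction (version 10.7.3.1 in the file headers and 11.0.1.1 in the submitters' processing notes), which hold intensities that the authors' software had already background-corrected. The deposited series table holds the same processed intensities on a linear scale, 1266160 of 1266160 values being equal to those of the scanner files within a relative tolerance of 1e-06, and was not used otherwise. Of 43803 spots that were no controls, outlier spots (3 to 529 per array) were left out, none was saturated, and spots of a probe were averaged, which gave 43603 probes. Signals were taken as log2 and quantile normalized. No counts lie behind the values, so the number of arrays limits the precision.

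Probes were named through 10567 of 14110 RefSeq accessions found in the GRCz12tu annotation, which named 15163 probes. The array design is older and no coordinates are given. Of the 72 genes, 49 had 1 probe and 23 several, and the brightest probe on average over the arrays stands for a gene, other probes being given for some of the genes described. In 24 tests of other probes at called stage steps, 22 had the same sign as the main probe, and 12 of these were also called. All probes were fitted in limma 3.58.1 (R 4.3.3) with stage, E2 within each stage and the replicate number, and p-values were adjusted by Benjamini and Hochberg over all probes. A stage step was called at an adjusted p under 0.05, and shares of all named genes are over their main probes. The methods removed the replicate as a batch. Same-numbered DMSO and E2 pools deviated together in 14 of 14 pairs (r from 0.17 to 0.65). The median r of pools with unlike numbers was -0.20, and deviations from a group mean sum to 0, which by itself lowers these values. Some of these reached as much, such as 0.45 for 4 dpf DMSO replicate 4 with E2 replicate 3, against 0.25 with E2 replicate 4, all on the same slide. Same-numbered DMSO and E2 pools of a stage shared a slide, except those of replicate 2. At every stage these were split over slides 1 and 4 (r from 0.23 to 0.33). The part of the slide in these r values was not tested. The replicate number stayed in the fit as a block. No label says that a number marks the same batch at different stages, and replicate 1 was on slide 2 at 1 and 2 dpf and on slide 3 at 3 and 4 dpf. Replicates came from separate spawnings per the methods. The p-values rest on the spread between pools that is left after the stage, E2 and replicate terms, taken over all groups together.

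The genes, lists and tests were chosen with earlier results of these data known. Named with values are, for each stage step, the 6 genes that rose and the 6 that fell most among those called, the genes past a threshold under E2 or the 3 with the smallest p at a stage where fewer than 3 passed, and 27 of a list of 31 well-known ligands that the array names. Other genes named were picked after their values were seen, and 1 gene of the pathway lists is not reported here. Alternatives were another background correction, 75th percentile scaling, a filter on dim probes, no block, slide or scan batch as a block, and array weights. Further ones were the mean of all probes, a form of the methods' test within a stage, and leaving out each pool of the groups compared. The fit was tested on simulated data. Tables were made with pandas 2.3.3 and numpy 2.4.6 in Python 3.11.15, and figures with matplotlib 3.10.9.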

Additional observations from a re-analysis of the deposited data

Results flagged for a closer look

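In 192 groups of 4 pools of the named genes, 18 single values in 15 genes stood apart, the gap to the nearest pool, as a share of the group's range, being above Dixon's critical value, and chance alone marks about 1 in 20 groups. Of these, 6 were in 3 dpf E2 replicate 1 and 4 in 4 dpf DMSO replicate 1.

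In 3 dpf E2 replicate 1 the log2 signal was higher than in the other pools for bmp7a (4.73 against 0.62 to 0.70), fgf10a (7.78 against 6.20 to 6.35), gdf6b (6.34 against 0.62 to 0.87) and wnt3a (7.88 against 6.34 to 6.55). It was lower there for fgf21 (1.25 against 3.78 to 4.09) and gdf10a (5.57 against 6.50 to 6.55). In 4 dpf DMSO replicate 1 it was higher for dhh (1.41 against 0.50 to 0.59, all not well above background), gdf6b (2.52 against 0.55 to 0.60), tgfb1a (6.96 against 5.53 to 5.63) and wnt3a (6.99 against 5.82 to 6.01).

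In 4 dpf E2 replicate 1, gdf6b stood at 1.82 against 0.73 to 0.84 and wnt8b at 1.76 against 0.54 to 0.74, all not well above background. The remaining values were bmp1a in 3 dpf DMSO replicate 1 (6.97 against 6.26 to 6.29), fgf8b in 3 dpf E2 replicate 2 (6.53 against 5.86 to 5.88) and shhb in 4 dpf DMSO replicate 2 (8.40 against 8.78 to 8.82). At 4 dpf in E2, fgf19 in replicate 2 (5.41 against 4.41 to 4.58), ihhb in replicate 3 (4.91 against 4.13 to 4.26) and fgf5 in replicate 4 (0.97, not well above background, against 3.32 to 3.38) stood apart. The part of any of these in the results, where not given above with and without the pool, was not tested.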

How the results depend on the processing

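All called stage steps of the 72 genes kept their sign in every alternative. Without the replicate block, 19, 7 and 3 genes were called at the 3 steps and 0 genes passed the thresholds for E2 at 3 dpf. With slide as a block 6 genes were called from 2 to 3 dpf, and with array weights 24. Under E2 at 3 dpf, slide or scan batch as a block, array weights and normexp background correction (on median signals, added after seeing the data) each gave 0 genes in place of 1. So did the form of the methods' test that was run here, outside the authors' software. The paper itself lists fgf19 among its E2-responsive genes at 3 dpf. The change of fgf19 under E2 at 3 dpf turned to 0.163 with 75th percentile scaling, where fgf17 (1.1, unadjusted limma p of 0.00614) was the gene past the thresholds. The cause of these shifts was not tested.

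Leaving out 1 pool of the groups compared at a time gave 20 to 26, 8 to 14 and 4 to 8 genes at the 3 steps. For E2 it gave 0 to 0 at 1 and 2 dpf, 0 to 2 at 3 dpf (2 without 3 dpf E2 replicate 3 or 4, fgf19 and bmp1a), and 0 to 1 at 4 dpf (bmp15 without 4 dpf E2 replicate 2, -1.48, unadjusted limma p of 0.00751). The stage-by-E2 term stayed at 0 to 0 genes. Normexp on mean signals was not run, and median signals took their place.

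Limits: genes at background on every pool of a group have only a bound, pools hold whole embryos, and the E2 intervals reached, in the median gene, 0.52 to either side of the log2 change with 3 pools per group and 0.45 with 4.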
